A study of Mus musculus with 14 samples.

Results

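The regions described here are isolated binding peaks of the retinoic acid receptor RARα that lie inside protein-coding genes of 266-6 cells, a mouse pancreatic acinar cell line. They were chosen by position and by presence in a peak list. A peak of any of the 5 lists was a member if it met a protein-coding gene span by at least 1 bp, started at or after base 3300000 of its chromosome, and lay in no chain of 3 or more regions whose gaps were 100 kb or less. Peaks in 5 stretches of repetitive sequence were left out. This gave 243 of 1529 peaks, and overlapping peaks joined into 90 of 551 regions. Isolated regions that met no protein-coding gene, 172 in all with 411 peaks, served for comparison, so 34.4% of the 262 isolated regions were in genes. Because presence in a list chose the members, their signal is given as a description.

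RARα was assayed by CUT&RUN, in which a nuclease tethered to an antibody releases the DNA around the bound protein. Before harvest, cells were kept for 24 h in stripped medium and for a further 24 h with DMSO or with a ligand, which was 9-cis retinoic acid, AM580, CD3254 or the treatment labelled AM+CD, whose 2 parts the labels do not spell out. AM580 has 2 labelled samples and each other treatment has 3. The 14 labelled samples share 5 peak lists, 1 per treatment, so there are no replicate values and every comparison is between 5 lists and not between conditions. 266-6 is 1 established line derived from an acinar tumour, no RNA was analysed, and its acinar markers were therefore not checked; no dose is given in the sources used here.

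RARα pairs with a retinoid X receptor (RXR), and the pair sits on direct repeats of a short hexamer. Without ligand the pair is known to hold co-repressors at its sites, and agonists exchange these for co-activators, often without leaving the site. AM580 is an agonist selective for RARα, CD3254 is selective for RXR, and 9-cis retinoic acid is an agonist of RAR and RXR alike. Enhancers bound by nuclear receptors are often found in introns, far from the start of the gene. In the pancreas, retinoid signalling is known for its part in the development of the organ.

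Rarb encodes the retinoic acid receptor beta and is a textbook target of its own receptor family. It is shown because it is the 1 host gene from the lists of RAR target genes and of retinoid receptors. The 250 bases before its listed start (RefSeq, GRCm38.p6, chr14:16575477-16575726, minus strand) hold the known response element, a direct repeat of 2 hexamers with a spacer of 5 bases, given in capitals.
Rarb: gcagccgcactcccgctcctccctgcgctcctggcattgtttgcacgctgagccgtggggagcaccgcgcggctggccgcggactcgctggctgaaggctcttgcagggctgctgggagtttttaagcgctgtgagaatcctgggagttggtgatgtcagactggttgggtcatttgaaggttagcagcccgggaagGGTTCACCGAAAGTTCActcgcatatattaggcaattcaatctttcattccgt
The only member region to meet a promoter window of the table was that of 4931408C20Rik. Its 250 bases (chr1:26687461-26687710, minus strand) are printed for contrast and hold no such hexamer, so nothing is in capitals.
4931408C20Rik: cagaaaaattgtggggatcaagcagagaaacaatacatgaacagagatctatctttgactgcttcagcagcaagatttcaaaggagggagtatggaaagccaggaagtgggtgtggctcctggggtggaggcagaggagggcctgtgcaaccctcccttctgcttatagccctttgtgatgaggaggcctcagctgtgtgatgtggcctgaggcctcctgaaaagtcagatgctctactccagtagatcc
The hexamers searched were AGGTCA or GGGTCA and AGTTCA or GGTTCA, on both strands, in windows from 250 bases before to 50 after a listed start. A direct repeat with a spacer of 5 was found in 0.0974% of all 32851 windows and in 1 of the 102 windows of host genes (0.98%), that of Rarb. Spacers of 1 and 2 were in 0.222% and 0.268% of all windows and in 0 of the 102. At least 1 hexamer was found in 43.7% of all windows and in 47.1% of those of host genes. The sequence under the peaks themselves was not analysed here.

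No list held a peak at the Rarb promoter window. The nearest listed peak was the Rarb member region itself (chr14:16859535-16859838), 283809 bp from the window and upstream of it on the minus strand, inside the longer span that the table gives for the gene, and only the 9-cis retinoic acid list held it. Its summit pileup, the number of fragments that cover the summit, was 10, with a fold enrichment over the local background of 6.61 and a −log10 q of 5.39. In the other lists the nearest listed peak lay between 2840009 and 2840014 bp away. Peak names are numbered along the genome and some numbers are not listed in the files used here. Between the listed peaks that flank the Rarb region 2 numbers are missing in DMSO, 1 in AM580, 4 in CD3254 and 5 in AM+CD, so these lists do not show whether a peak had been called there.

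Depth differed between the lists. The background coverage, the lowest local background of a list, was 0.544 fragments per base with 9-cis retinoic acid, 0.985 with AM580, 1.32 with DMSO, 2.13 with AM+CD and 2.36 with CD3254. Member peaks numbered 33, 53, 43, 38 and 76 in the same order. The CD3254 list was the deepest and held the most members and the 9-cis retinoic acid list was the shallowest and held the fewest, but AM+CD held fewer than DMSO and AM580 at greater depth. Depth and ligand cannot be told apart with 1 list per treatment, and intervals given here cover counting error only.

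The 90 regions fell into 2 large groups, those in every list and those in a single list. In all 5 lists there were 25 (27.8%, 95% Wilson interval 19.6 to 37.8), against 28.7% of all regions of the series. In 1 list there were 38 (42.2%, 32.5 to 52.5), against 39.7% of all regions. Another 9 were in 2 lists, 10 in 3 and 8 in 4. The most frequent combinations were CD3254 alone with 26 regions, all lists with 25, all lists but 9-cis retinoic acid with 8, DMSO with AM580 and CD3254 with 6, AM580 alone with 6, AM580 with CD3254 with 5, and 9-cis retinoic acid alone with 5. No region was in DMSO alone.

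**Figure D1:**
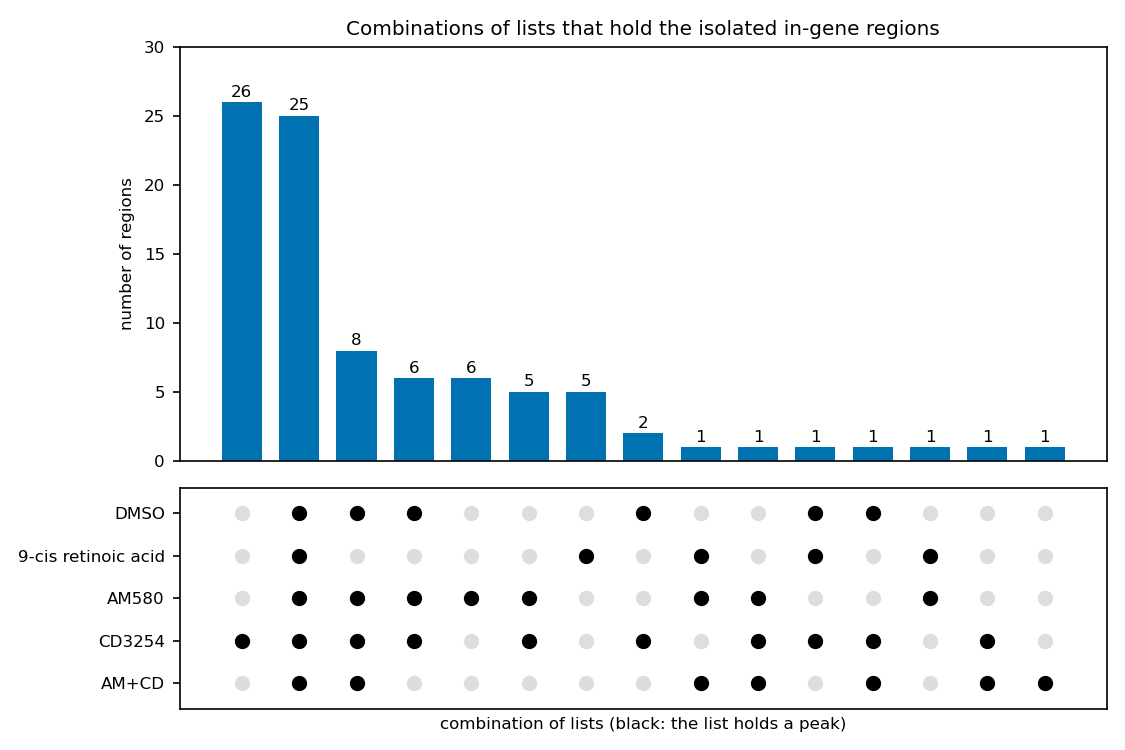
Number of isolated in-gene regions (vertical axis, regions) for each combination of peak lists, with black dots marking the lists that hold a peak. CD3254 alone (26 regions) and all 5 lists (25 regions) are the tallest bars.

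The highest signal of all was in Mdga2 (chr12:67059167-67059927), which encodes a membrane-anchored adhesion protein that regulates synapses. Its summit pileup was 1128 with DMSO, and the ligand lists had 582 (9-cis retinoic acid), 773 (AM580), 1915 (CD3254) and, for AM+CD, 1626. Divided by the background coverage of each list, the same values became 852, 1071, 785, 811 and 764. This order of the lists, DMSO first, is kept for every series of 5 values. The raw order of the lists followed depth, and after division the highest list was 1.4 times the lowest. Cldn34d, a member of the claudin family of junction proteins, stood second (chrX:76598550-76599220), with scaled pileups of 403, 436, 377, 409 and 402. These 5 values lay within a factor of 1.16. Kctd16, an auxiliary subunit of the GABA-B receptor (chr18:40308019-40308490), followed with 214, 199, 246, 223 and 229. It was highest with AM580 and lowest with 9-cis retinoic acid.

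Below these came 4 regions with scaled pileups between 109 and 223. Atrnl1, an attractin-like membrane protein (chr19:58113265-58113705), had 166, 173, 148, 151 and 150. Aida, an axin-interacting protein (chr1:183299135-183299680), had 148, 156, 170, 166 and 167. Smo, the signal transducer of the Hedgehog pathway (chr6:29747883-29748975), had 149, 223, 179, 171 and 179. Smo was highest with 9-cis retinoic acid and lowest with DMSO, whereas Atrnl1 and Aida varied little. The scaled values of the 9-cis retinoic acid list ran higher in general, as given below. E030030I06Rik (chr10:22142118-22143158) had 109, 144, 139, 127 and 127, again lowest with DMSO.

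The rest of the 25 regions in every list had scaled pileups between 14.6 and 178. Their host genes included Cdk8, a kinase of the Mediator complex, Jarid2, an accessory subunit of the Polycomb complex PRC2, Lars2, a mitochondrial leucyl-tRNA synthetase, Ank1, a spectrin-binding ankyrin, Dock2, a Rac activator of blood cells with 2 such regions, Wdr76, Vps45, which acts in endosomal vesicle fusion, Lpp, a LIM-domain adhesion protein, and Ppp1r9a, the actin-binding neurabin. The weakest were Csf2ra, the GM-CSF receptor alpha chain, with pileups from 12 with 9-cis retinoic acid to 53 with CD3254, and Dlgap2, a synaptic scaffold, with 14 to 38. Over the 25 regions the highest scaled pileup was between 1.15 and 2.56 times the lowest, with a median of 1.5, and in 12 of them it was under 1.5 times. The unscaled pileup was highest with CD3254 in 24 of the 25 and lowest with 9-cis retinoic acid in 24, as the depths were. After scaling, 9-cis retinoic acid was highest in 12 regions, AM580 in 11, DMSO in 1, CD3254 in 1 and AM+CD in 0. The scaled pileups of the 9-cis retinoic acid list ran higher as a whole. Their median ratio to DMSO was 1.2 over all 169 regions of the series that both lists hold, and the count was not adjusted for this.

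Local background was high under the tallest summit. At Mdga2 it was 41.8 fragments per base with DMSO, 31.6 times the coverage of that list, and the fold enrichment was 26.4. Among member peaks with a pileup of 100 or more the fold lay between 13.1 and 31.1 over all lists, with pileups up to 1915. Positions were close between lists in part by construction, because only overlapping peaks were joined into a region. In the 25 regions the summits of the 5 lists lay within a median of 47 bp of each other, and within 50 bp in 13, while starts differed by a median of 22 bp. The widest spread of summits was 347 bp, at Dlgap2. In the 40 isolated regions outside genes that every list held, the median was 51 bp, and summits lay within 50 bp in 20.

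**Figure D2:**
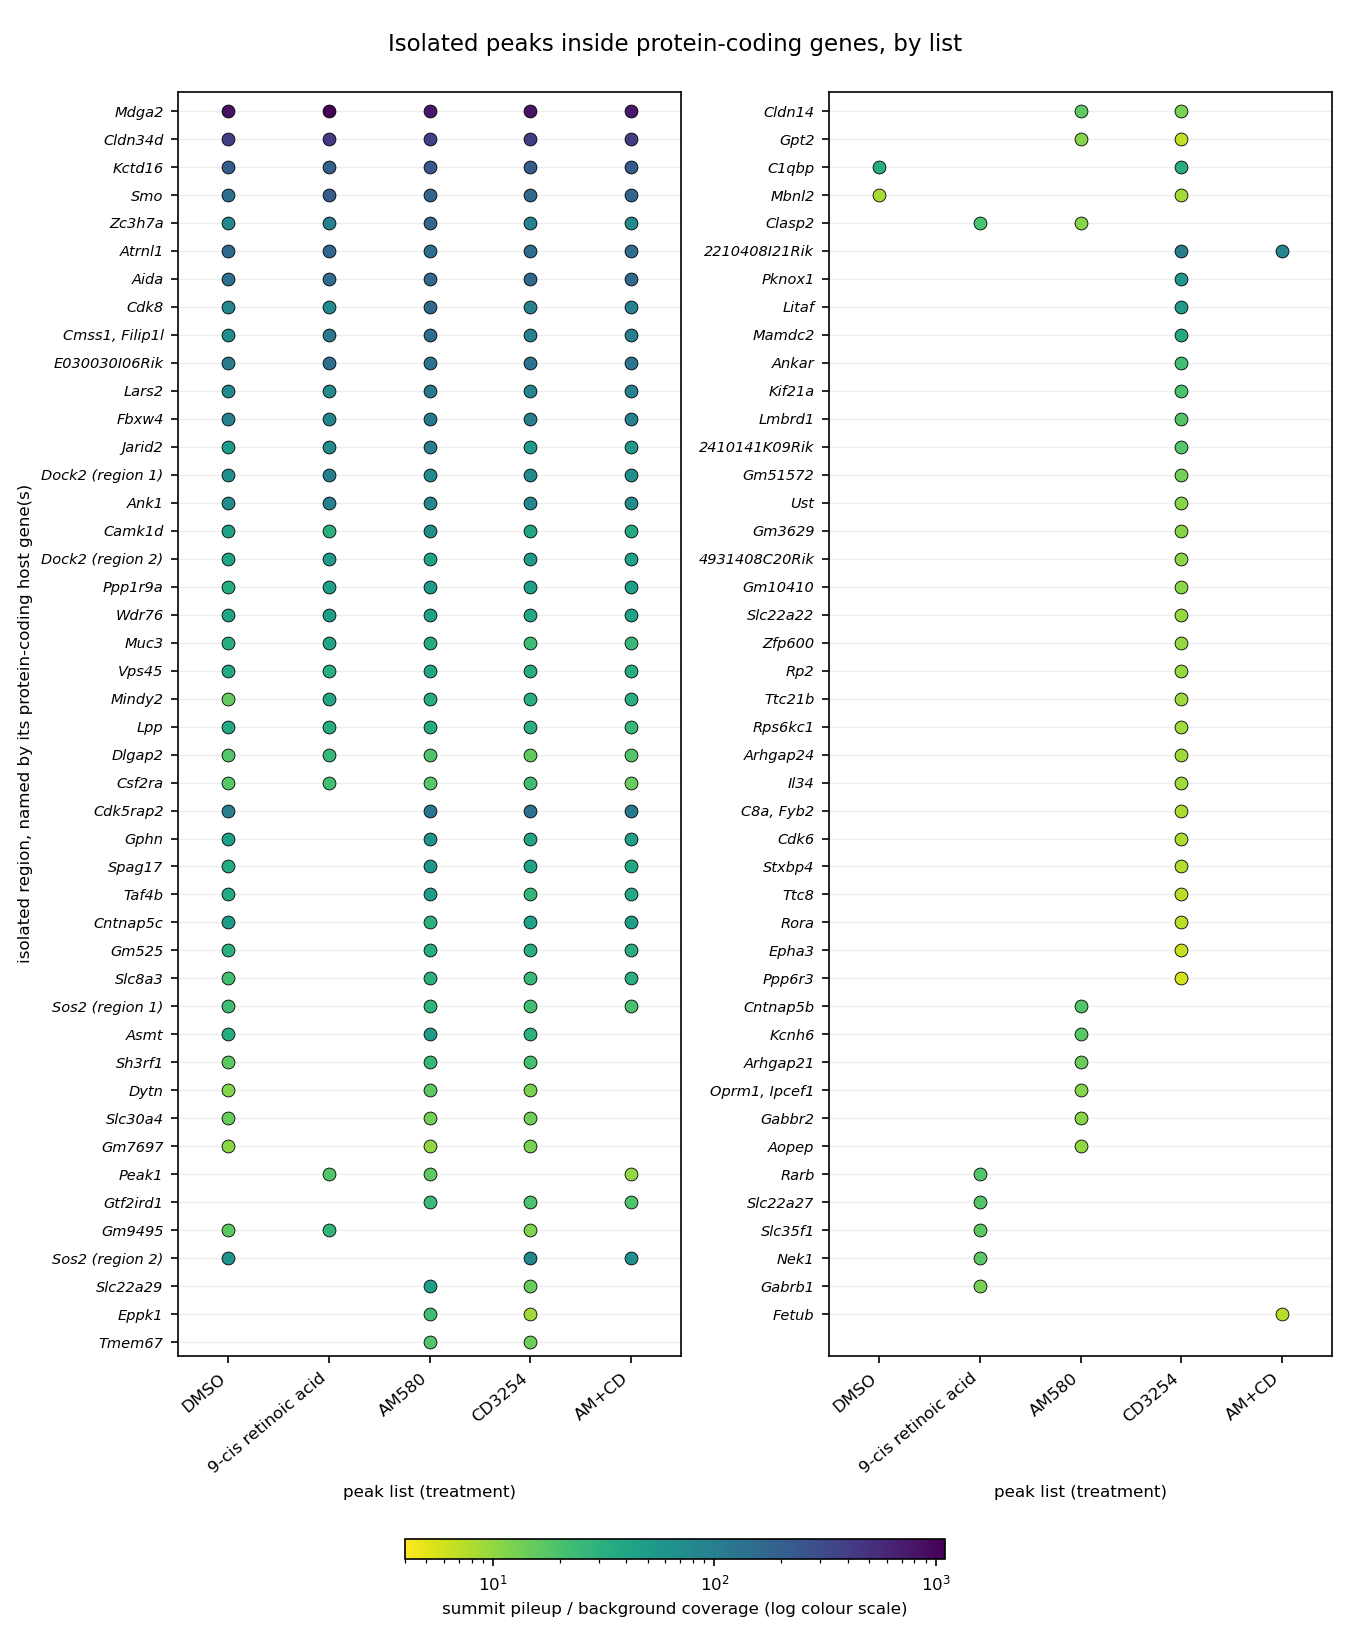
Isolated in-gene regions (vertical axis, named by its host gene) in each peak list (horizontal axis); a point marks a peak and its colour gives the summit pileup divided by background coverage on a log scale. The 25 regions in every list open the left panel with Mdga2 at the top, and the 26 CD3254-only regions fill most of the right panel.

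In the DMSO list, 43 members were peaks called without added ligand. Of these, 43 were met by a CD3254 peak (100%, 95% Wilson interval 91.8 to 100), 38 by an AM580 peak (88.4%, 75.5 to 94.9), 34 by an AM+CD peak (79.1%, 64.8 to 88.6) and 26 by a 9-cis retinoic acid peak (60.5%, 45.6 to 73.6). Of all DMSO peaks, 0.699% had no CD3254 peak, 11.9% no AM580 peak, 28% no AM+CD peak and 39.9% no 9-cis retinoic acid peak, and the members' shares lay near these. The order of the ligands is that of depth except for AM+CD. The 4 ligand lists share the DMSO list as their reference, so these shares are not independent of each other.

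The DMSO members without a 9-cis retinoic acid peak, 17 regions, were led by Cdk5rap2, a centrosome protein (chr4:70378121-70378430). Its pileup was 139 with DMSO, 240 with AM+CD, 120 with AM580 and 310 with CD3254. Scaled to the coverage of the 9-cis retinoic acid list, the DMSO pileup equals 57 fragments, far above the lowest pileup of 6 in that list, and no peak number is missing there. No 9-cis retinoic acid peak had therefore been called in Cdk5rap2 under the authors' settings. With its local background scaled as well, the DMSO summit has a Poisson −log10 p of 64.7, above the lowest of that list, 5.7. A region that reaches the lowest −log10 p in this way is said to pass the check. The same held for the region of Sos2, a Ras activator, at chr12:69654056-69654354, where 82 fragments with DMSO scale to 33.6, and for Gphn, the scaffold gephyrin of inhibitory synapses, where 61 scale to 25. Spag17, a protein of cilia, with 47 scaling to 19.3, Taf4b, a TFIID subunit, with 49 scaling to 20.1, Slc8a3, a sodium-calcium exchanger, with 29 scaling to 11.9, the other Sos2 region (chr12:69608358-69608831), with 30 scaling to 12.3, and Sh3rf1, with 22 scaling to 9.03, completed these 8. Of the 17 regions, 14 would have passed the check, 10 lay where no number is missing, and 8 met both conditions. In the others, such as Cntnap5c and Asmt, a number is missing or the region would not have passed. Outside genes, 23 isolated DMSO regions lacked a 9-cis retinoic acid peak, and the same counts were 20, 11 and 9. Width was not part of the check. The narrowest 9-cis retinoic acid peak was 304 bp wide, while the Sos2 region at chr12:69654056-69654354 was 299 bp wide and that of Cdk5rap2 310 bp. The rest of the 8 were wider, at 319 (Slc8a3), 320 (Spag17), 421 (Gphn), 474 (Taf4b), 474 (the other Sos2 region) and 513 bp (Sh3rf1). Whether width goes with these absences was not tested.

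Losses from the other ligand lists were fewer or could not be read. The 4 DMSO regions without an AM580 region were the Sos2 region at chr12:69654056-69654354 (pileup 82 with DMSO, 191 with CD3254, 142 with AM+CD), C1qbp, a mitochondrial matrix protein, Gm9495 and Mbnl2, a splicing regulator. Only Gm9495 lay where no AM580 number is missing, and its DMSO pileup of 22 scales to 16.4 there. A further DMSO peak, in Slc30a4, a zinc transporter, met no AM580 peak directly but shared a region with one through a wider CD3254 peak. The 9 DMSO regions without an AM+CD peak included Asmt, C1qbp, Gm9495, Sh3rf1, Slc30a4, Dytn, Gm7697 and Mbnl2. All 9 would have passed the check at the depth of AM+CD. In none was the stretch free of missing numbers, so these lists do not show whether a peak had been called there. The same held for all 17 isolated DMSO regions outside genes without an AM+CD peak.

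From the side of the ligands, most members had a DMSO peak in every list but to different extents. The share was 34 of 38 with AM+CD (89.5%, 75.9 to 95.8), 26 of 33 with 9-cis retinoic acid (78.8%, 62.2 to 89.3), 38 of 53 with AM580 (71.7%, 58.4 to 82) and 43 of 76 with CD3254 (56.6%, 45.4 to 67.1). The members without a DMSO peak were thus 10.5%, 21.2%, 28.3% and 43.4% of their lists, beside 10.6%, 13.5%, 23.2% and 43.4% of all peaks of the same lists. The AM580 and CD3254 lists were the longest, with 323 and 493 peaks. When every list was trimmed to its 200 strongest peaks, the share with a DMSO peak rose to 88.9% of 36 members with AM580 and 86.5% of 37 with CD3254, and with 9-cis retinoic acid it was 66.7% of 33.

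**Figure D3:**
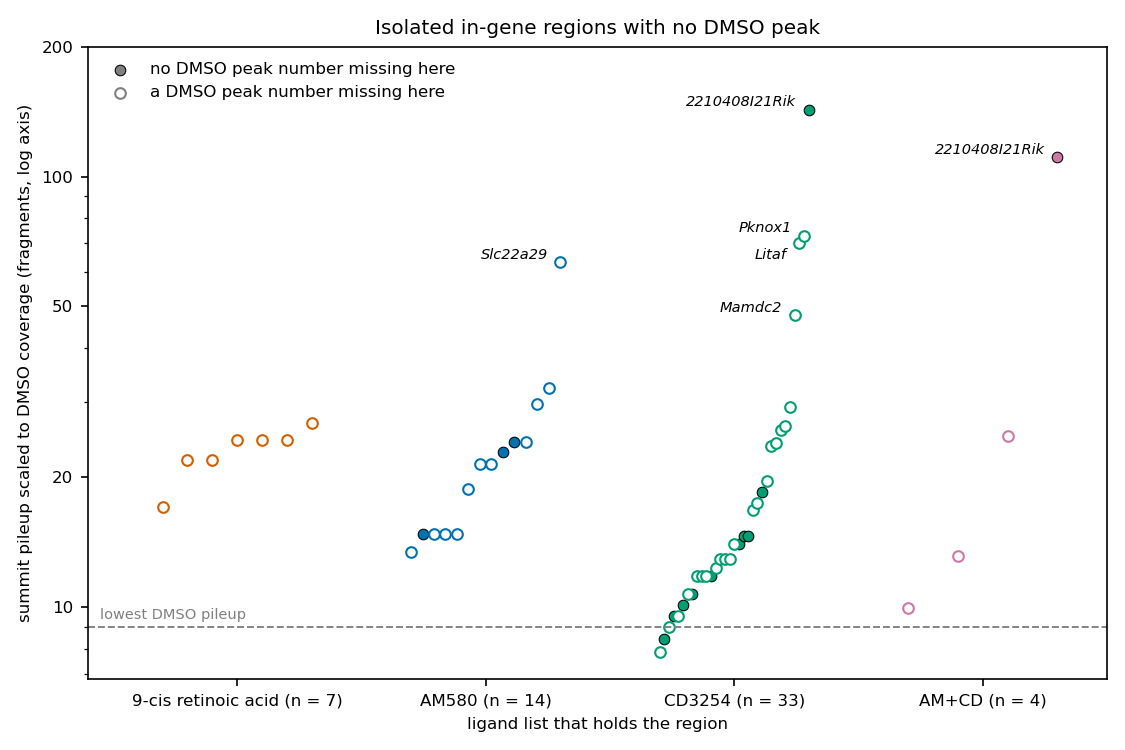
Summit pileup scaled to DMSO coverage (fragments, log axis) of the regions that each ligand list holds and the DMSO list does not; filled points lie where no DMSO peak number is missing, open points where one is, and the dashed line is the lowest DMSO pileup. 2210408I21Rik stands highest with 143 from CD3254 and 111 from AM+CD, and most CD3254 points lie under 20.

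CD3254 had 33 members without a DMSO peak, 26 of them in its list alone. The strongest by far was in 2210408I21Rik (chr13:77438910-77439186), with a pileup of 255 with CD3254 and 178 with AM+CD and no listed peak in the other 3 lists. Scaled to DMSO coverage these equal 143 and 111, and no DMSO number and no 9-cis retinoic acid number is missing there, so neither list had a called peak. Only the 2 deepest lists, both from treatments whose names include CD, held this region, and AM580 numbers are missing there. This region was 277 bp wide. The narrowest peak was 304 bp wide in the 9-cis retinoic acid list, 254 bp in the DMSO list and 232 bp in the AM580 list. Whether depth, width or treatment goes with its absence from a list was not tested.

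Pknox1, a homeodomain cofactor of PBX proteins and the 1 host from the list of 35 pancreatic transcription factors, had a CD3254 pileup of 130 (chr17:31570414-31570674). Litaf, an endosomal membrane protein, had 125 (chr16:10975068-10975320), and Mamdc2, an extracellular matrix protein, had 85 (chr19:23357428-23357689). These 3 were in the CD3254 list alone. In Litaf no AM+CD number is missing, and the pileup scaled to that list is 113, so AM+CD had no called peak at a place where CD3254 had a tall one at similar depth. In Pknox1 and Mamdc2 numbers are missing in all 4 other lists. These 3 and 2210408I21Rik, the tallest CD3254 regions without DMSO, were narrow, 277, 261, 253 and 262 bp wide in 2210408I21Rik, Pknox1, Litaf and Mamdc2, where the narrowest member of the CD3254 list had 249 bp.

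The other CD3254-only regions were low, with a median pileup of 23 over the 26 and a lowest of 14. They included Ankar (52), Kif21a, a kinesin (47), Lmbrd1, a lysosomal cobalamin exporter (43), Ust, a uronyl sulfotransferase (26), Il34, a ligand of the CSF1 receptor (21), Arhgap24 (21), Cdk6, a cell cycle kinase (19), Rora, an orphan nuclear receptor (17), and Epha3, an ephrin receptor (15). Median width was 285 bp for the CD3254-only peaks and 546 bp for CD3254 peaks of the 25 regions in every list, whose median pileup was 196. Of the 33 regions without DMSO, 25 would have passed the check at DMSO depth, 10 lay where no DMSO number is missing, and 7 met both conditions. These were 2210408I21Rik, Tmem67, a cilium membrane protein, Ust, Gm3629, Gm10410, Rps6kc1 and Stxbp4, and apart from the first their scaled pileups lay between 10.1 and 18.5. Outside genes, 67 isolated CD3254 regions had no DMSO peak, and the same counts were 47, 13 and 9. Width was not part of the check. The narrowest DMSO peak was 254 bp wide, while the Gm10410 region was 251 bp wide. The rest of the 7 were wider, at 277 (2210408I21Rik), 370 (Rps6kc1), 394 (Gm3629), 425 (Tmem67), 472 (Stxbp4) and 514 bp (Ust).

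AM580 had 14 regions without a DMSO peak, 6 of them in its list alone. The highest was in Slc22a29, of the organic anion transporter family, with 47 fragments with AM580 and 35 with CD3254 (chr19:8252234-8252549). Scaled to coverage these were 47.7 and 14.8, so this region was 3.22 times higher with AM580. Gtf2ird1, a transcription factor of the TFII-I family, had pileups of 24, 46 and 40 with AM580, CD3254 and AM+CD, which scale to 24.4, 19.5 and 18.8. The 6 regions of AM580 alone had pileups from 10 to 18 and lay in Kcnh6 and Cntnap5b, Arhgap21, the overlapping Oprm1 and Ipcef1, Gabbr2, and Aopep. All 14 would have passed the check at DMSO depth, and in 3 (Kcnh6, Tmem67, and Oprm1 with Ipcef1) no DMSO number is missing. Outside genes, all 26 isolated AM580 regions without a DMSO peak would have passed, and in 7 no DMSO number is missing. Eppk1, Cldn14 and Gpt2 were shared with CD3254, and Peak1 and Clasp2 with 9-cis retinoic acid.

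9-cis retinoic acid had 7 regions without DMSO, all of low pileup in this shallowest list. Scaled to DMSO coverage, their pileups equal 17.1 (Gabrb1) to 26.8 (Clasp2) fragments. In the list alone were Rarb (pileup 10), Slc22a27 (10), Slc35f1 (9), Nek1, a kinase of cilia (9), and Gabrb1, a GABA-A receptor subunit (7). Clasp2, a microtubule plus-end protein, had 11 fragments with 9-cis retinoic acid and 11 with AM580. Peak1, a pseudokinase of the cytoskeleton, had 10 with 9-cis retinoic acid, 16 with AM580 and 21 with AM+CD. The 5 regions of this list alone had −log10 q values between 2.65 and 5.39, whereas the median member of the list had 21.1. All 7 would have passed the check at DMSO depth, but all lay where at least 1 DMSO number is missing. Outside genes, 20 isolated 9-cis retinoic acid regions had no DMSO peak. All 20 would have passed, and 5 of them lay where no DMSO number is missing. Slc35f1 lay where no AM580 number is missing, and its 9 fragments scale to 16.3 there.

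The AM+CD list was next compared with those of AM580 and CD3254. Of its 38 members, 36 were met by a CD3254 peak (94.7%, 82.7 to 98.5) and 35 by an AM580 peak (92.1%, 79.2 to 97.3). Without an AM580 peak were 7.89% of members beside 8.81% of the list, and without a CD3254 peak 5.26% beside 3.52%, so the members were near their list. The files used here list 32.4% of the AM+CD peak numbers, the smallest share of the 5 lists, and what the other numbers hold is not known. The 1 region of AM+CD alone was in Fetub, a fetuin of the liver (chr16:22928509-22928838), with a pileup of 16 and a −log10 q of 5.75, the lowest of the members of that list. The 9-cis retinoic acid list, whose ligand reaches both partners, had 26 of 33 members met by an AM+CD peak (78.8%, 62.2 to 89.3), with 21.2% not met beside 17.5% of the list.

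Peak height was compared at regions that both lists hold, as the ratio of scaled pileups with a 95% exact interval. The intervals are not adjusted for the number of regions. A difference of 1.5 times or more was counted. With AM580 11 of 39 regions were higher than with DMSO (28.2%) and 1 was lower (2.56%), beside 14.2% and 1.62% of all 247 regions that both lists hold. Among the 59 isolated regions outside genes that both hold, 27.1% were higher. The median ratio of the members was 1.17 and that of all regions 1.01.

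Zc3h7a, a zinc finger protein that binds RNA (chr16:11143906-11144366), had pileups of 111, 53, 175, 222 and 168 in the order of lists above. Scaled, these were 83.8, 97.5, 178, 94.1 and 79, so AM580 stood alone at 2.12 times DMSO (1.66 to 2.71). Cdk8 (chr5:146260979-146261440) had the same shape, with scaled pileups of 82.3, 75.4, 170, 91.1 and 90.3 and an AM580 ratio of 2.06 (1.61 to 2.65).

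Jarid2 (chr13:44869572-44870139) had scaled pileups of 51.3, 75.4, 103, 51.7 and 55, and AM580 was 2 times DMSO (1.45 to 2.76). The region shared by the overlapping genes Cmss1 and Filip1l (chr16:57391146-57391791) had 75.5, 116, 157, 96.6 and 101, an AM580 ratio of 2.08 (1.61 to 2.71). In both, AM580 was highest and 9-cis retinoic acid next. Mindy2, Asmt, Spag17, Ppp1r9a, Sh3rf1 and Camk1d were also above 1.5 times, at 2.15, 1.59, 1.55, 1.55, 1.53 and 1.52, and the interval of Sh3rf1 (0.827 to 2.84) included 1. The region that was lower with AM580 was in Cntnap5c, a neural adhesion gene (chr17:57855944-57856349), with pileups of 68 with DMSO and 30 with AM580, a ratio of 0.593 (0.373 to 0.924). With CD3254 and AM+CD the scaled pileup of Cntnap5c was 43.6 and 44.7, between these.

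**Figure D4:**
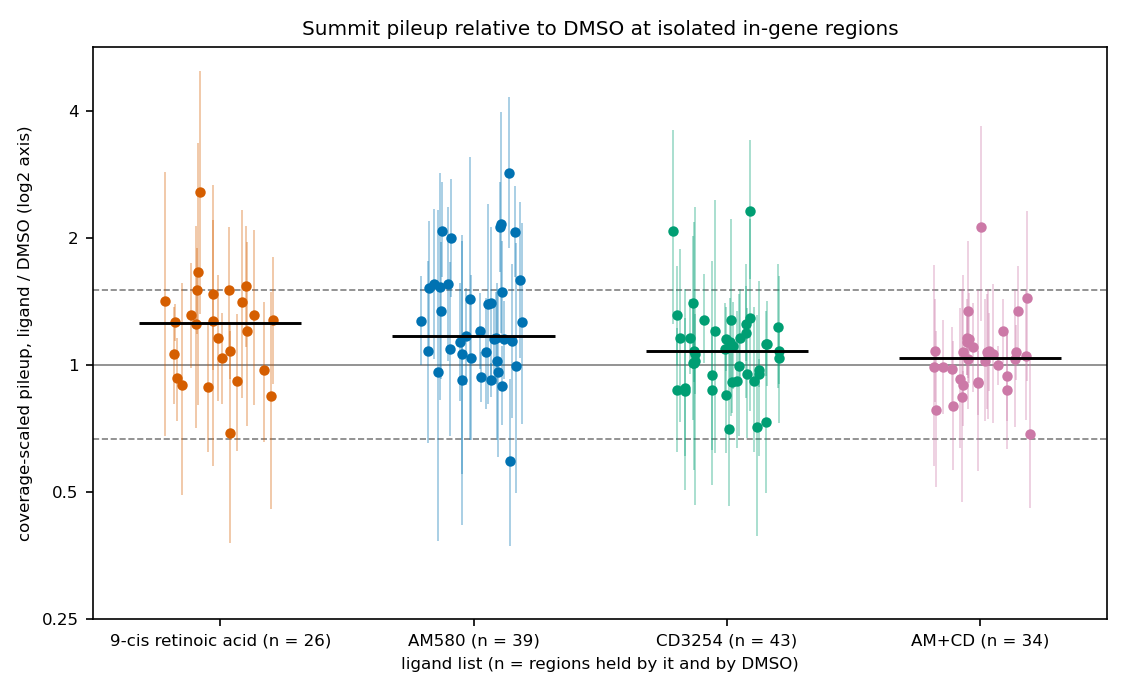
Ratio of coverage-scaled summit pileup, ligand over DMSO (log2 axis), at each region that both lists hold; thin lines are 95% exact intervals, black bars medians and dashed lines 1.5-fold. AM580 has 11 of 39 regions at or above the upper line, CD3254 has 2 of 43 and AM+CD has 1 of 34.

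With CD3254, 2 of 43 regions were higher (4.65%) and 0 lower, beside 1.08% and 0.722% of all regions. Mindy2 was among them. With AM+CD, 1 of 34 was higher (2.94%), Mindy2, and 0 lower, beside 1.48% and 0.985%. With 9-cis retinoic acid, 3 of 26 were higher (11.5%) and 0 lower, beside 12.4% and 0% of all regions, and the 3 were Mindy2, Gm9495, whose interval (0.802 to 3.35) included 1, and the region of Cmss1 and Filip1l. The median of all regions was itself shifted by 0.258 on the log2 scale in this list, and relative to that median 1 member was higher and 1 lower. The same scaling gave 11 higher and 1 lower with AM580, 2 and 0 with CD3254, and 2 and 0 with AM+CD.

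Mindy2, a deubiquitinase, was the member at least 1.5 times higher than DMSO in every ligand list (chr9:70623075-70623572). Its pileup was 20 with DMSO, against 21 (9-cis retinoic acid), 32 (AM580), 74 (CD3254) and, for AM+CD, 68. Scaled to coverage these were 15.1, 38.6, 32.5, 31.4 and 32, so the DMSO value lay apart and the 4 ligand values close together. The ratios were 2.56 (1.32 to 4.97), 2.15 (1.19 to 3.97), 2.08 (1.25 to 3.59) and 2.12 (1.27 to 3.68). All 4 rest on the same 20 DMSO fragments and share their counting error. Without a replicate of the DMSO list this was not tested further.

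AM+CD was also set against the AM580 and CD3254 lists. Of 35 regions that it holds with AM580, 6 were at least 1.5 times lower (17.1%) and 0 higher, beside 13.5% and 0% of all regions. These were Zc3h7a at 0.445 (0.358 to 0.553), Camk1d at 0.524 (0.373 to 0.738), Cdk8 at 0.532 (0.43 to 0.659), Jarid2 at 0.536 (0.408 to 0.707), Peak1 at 0.608 (0.302 to 1.25) and the region of Cmss1 and Filip1l at 0.642 (0.52 to 0.795). Apart from Peak1, which has no DMSO peak, they are among the 11 regions that were higher with AM580, but the same AM580 pileup enters both ratios, so the first gives no support to the second. Mindy2, Ppp1r9a and Spag17 were also higher with AM580 than with DMSO. Their ratios of AM+CD to AM580 were 0.984 (0.637 to 1.55), 0.864 (0.611 to 1.23) and 0.686 (0.48 to 0.988). Against CD3254, 1 of 36 was lower and 0 higher, beside 2.28% and 0.457%. It was Csf2ra, at 0.649 (0.403 to 1.03). Between 9-cis retinoic acid and AM+CD, 3 of 26 were higher with 9-cis retinoic acid (11.5%) and 0 lower, beside 18% and 0.621%, and none of the 3 intervals excluded 1.

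The host genes were long. The 90 regions lay in 91 protein-coding genes, 3 regions in 2 overlapping spans, and Dock2 and Sos2 held 2 regions each. The median span of a host was 117108 bp, against 17169 bp for all 21887 protein-coding genes of the main chromosomes. A long gene offers more bases to a peak, and the median span weighted by base was 138371 bp. Hosts of at least 100000 bp were 51.6% of hosts and 11.1% of genes, and genes of that length hold 59.2% of the summed span. The longest host was Mdga2 (763131 bp), followed by Dlgap2, Rora, Cntnap5b and Arhgap24, and the shortest was Gm51572 (3099 bp), followed by C1qbp, Asmt, 4931408C20Rik and Csf2ra.

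**Figure D5:**
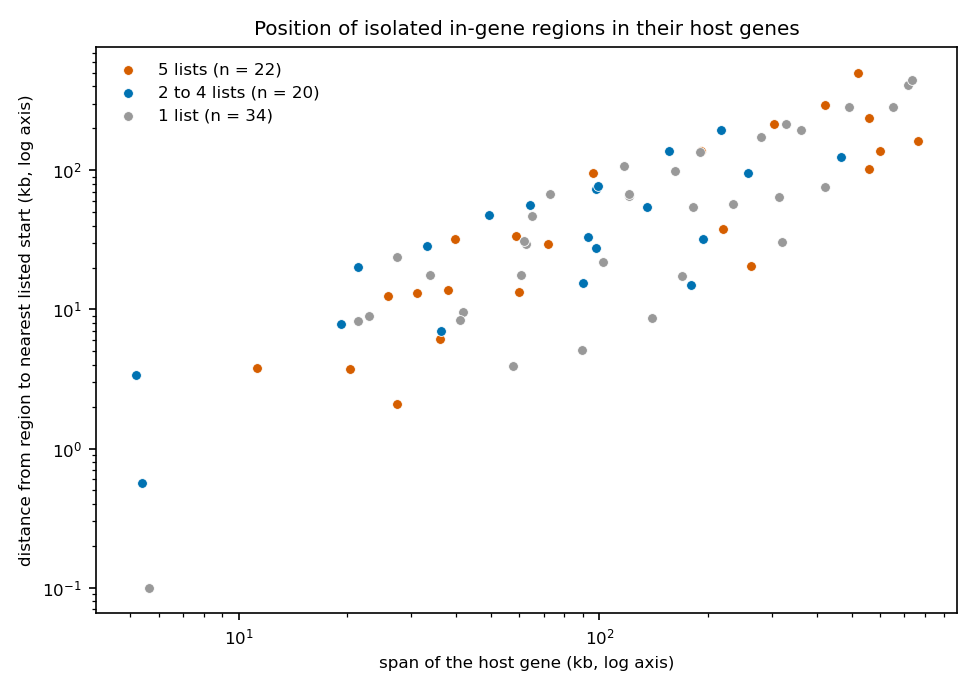
Distance from each region to the nearest listed start of its host gene (kb, log axis; a distance of 0 is drawn at 0.1 kb) against the span of the gene (kb, log axis), for the 76 pairs with a listed start. Most regions lie over 10 kb from a start whether they are in 1 list or in all 5.

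Distances to the start of the host gene are given as a description. No baseline for random positions within gene spans was computed, so whether they are larger or smaller than such positions would give was not tested. Of 76 pairs of a region and a gene with a listed start, the median distance was 33454 bp, 7 were within 5000 bp and 2 within 1000 bp. These 2 were 4931408C20Rik, whose CD3254 peak (pileup 25) met the promoter window printed above, and Asmt, an enzyme of melatonin synthesis, at 568 bp. With the gene divided into 4 equal parts from the 5′ end of its span, 25, 17, 20 and 14 pairs lay in the successive parts. Within 1000 bp of either gene end lay 6 regions, among them Lars2 (395 bp), Slc30a4 (50 bp) and Slc22a29 (826 bp). The table gives gene spans without exons, so a region cannot be assigned to an exon, an intron or a UTR. Other annotated genes, long noncoding RNAs in all 5 cases and in 1 also a pseudogene, met 5 of the regions.

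Few hosts came from the gene lists, which are short. Of 34 RAR target genes 1 was a host, Rarb, as it was for 33 retinoid receptors and co-regulators. Of 31 genes of retinoid metabolism and transport and of 38 acinar secretory genes, 0 were hosts (upper 95% Wilson limits 11% and 9.18%). The list of pancreatic transcription factors had 1 of 35 (Pknox1), that of ubiquitin and SUMO genes 1 of 42 (Fbxw4, a substrate receptor of a ubiquitin ligase), and that of chromatin and DNA methylation genes 1 of 40 (Jarid2). Neural adhesion and other very long genes had 4 of 85 (Atrnl1, Cntnap5b, Cntnap5c and Mdga2). Among all protein-coding genes 0.416% were hosts, and the very long genes of that list sum to 86.1 Mb of 1051 Mb. The acinar secretory genes sum to 0.352 Mb.

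Regions in genes and isolated regions outside genes were compared in 6 two-sided Fisher's exact tests with Benjamini-Hochberg adjustment. None passed. The share of regions in all 5 lists was 27.8% in genes and 23.3% outside (Fisher's exact test, difference 4.52 percentage points, 95% Newcombe interval -6.16 to 16, p = 0.45, adjusted p = 0.67). The share in 1 list was 42.2% and 51.7% (Fisher's exact test, difference -9.52 points, -21.7 to 3.19, p = 0.15, adjusted p = 0.67). The shares of peaks that met a DMSO peak differed by 2.29 points with AM580, 6.14 with AM+CD, 6.58 with CD3254 and 10 with 9-cis retinoic acid, each time higher in genes, with adjusted p between 0.67 and 0.85. The intervals of these 4 differences reach from -13.6 to 26.1 points.

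The limits of the rule touched few members. The lowest start was 3479855, in Cdk6 on chromosome 5, and 6 in-gene peaks started below the minimum. The smallest gap to a neighbour among members in no chain was 112621 bp, at Gm525, followed by 136525 bp at Dock2, and the largest among in-gene regions left out as chained was 94709 bp, at Gm40369. Of the members, 5 regions were in chains of 2 with gaps from 41885 to 49089 bp, in Csf2ra, Sos2 with both regions, Gm9495 and Gm7697. Gm51572 (198 of 317 bp) and 4931408C20Rik (249 of 966 bp) lay partly inside the gene. The nearest isolated peak outside a gene was 205 bp from AY761185.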

How the data were processed

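CUT&RUN against RARα was deposited as 5 peak lists for 14 labelled samples of 266-6 cells. Per the submitters' processing notes MACS2 2.2.7.1, Bowtie2 2.5.1, SAMtools 1.18, bedtools and FastQC were used with mm10. The sources used here do not give their order, the control, the q threshold, duplicate handling or any pooling. The deposited narrowPeak lists hold the authors' fold enrichment (a ratio), −log10 p and −log10 q per peak. The deposited score and the other columns (positions, summit offset) were used only for position and order.

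Pileup and local background were recovered from fold, (pileup + 1) / (background + 1), and the Poisson tail, in all 1529 peaks within a relative 0.0002, and this was tested on simulated data. The lowest background was the coverage by which pileups were divided. Genes, starts and promoter sequences came from RefSeq GRCm38.p6. Scripts used Python 3.11.15, pandas 2.3.3, SciPy 1.17.1 and statsmodels 0.14.6. The members and gene lists were chosen with earlier results of these data known. Named were hosts of the strongest regions (by DMSO fold or ligand −log10 q) in all lists, without DMSO, lacking from a list, and in the gene lists, the 5 longest and 5 shortest hosts, and those near gene ends. Regions named for a ratio of 1.5 or more, or as the 26 CD3254-only examples, were picked after their values were seen. 1 region is counted but not reported here by name.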

Additional observations from a re-analysis of the deposited data

How the results depend on the processing

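No paired analysis was possible because each treatment has 1 list. Of 116 values under 9 settings, 104 were counted as unchanged. A share had to stay within its interval and a count within 1.5 times. The shares of regions in all 5 lists and in 1 list were instead judged by the direction and outcome of their Fisher test. Keeping peaks with a −log10 q of at least 10 moved the share meeting a DMSO peak to 100% with 9-cis retinoic acid and 83.3% with AM580, and that of 9-cis retinoic acid meeting AM+CD to 95.8%. It also turned the differences from regions outside genes: 35.4% in all 5 lists (in genes minus outside, -2.51 points) and 32.3% in 1 list (4.94 points). Trimming lists to 200 peaks gave 88.9% with AM580, 86.5% with CD3254 and 66.7% with 9-cis retinoic acid. It also gave 40.4% of regions in all 5 lists and 26.9% in 1 list. Both lay outside the intervals of the main shares, although they were counted as unchanged. Settings for the counts of 1.5-fold differences were added after seeing the data. Trimmed lists gave 1 with 9-cis retinoic acid, 1 with CD3254 and 0 with AM+CD; genes of any kind gave AM+CD 2, and scaling by the median ratio also 2. Reciprocal overlap of 50%, summits inside the gene, chain gaps of 50 or 200 kb and leaving out chains of 2 moved none of the 14 results. For the shares of regions in all 5 lists and in 1 list, the lowest adjusted p of Fisher's exact test over all settings was 0.052. It belonged to the share in 1 list with genes of any kind, 38.9% of 113 regions in genes (in genes minus outside, -16.8 points). The stricter settings keep fewer peaks, and the cause of the shifts under any setting was not tested. Coverage was lowest in the 9-cis retinoic acid list, at 0.544 fragments per base.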
